A study of Rattus norvegicus with 6 samples.

Results

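Accessible sites (ACSs) around the beta cell transcription factor genes *Pdx1*, *Nkx6-1*, *Nkx2-2*, *Insm1*, *Glis3* and *Mnx1* were compared between adult and newborn rat islets. The members were all ACSs whose nearest annotated gene, as the deposited annotation names it, was one of these 6 genes. They came to 64 of 101603 distinct ACSs, with 5 at *Pdx1*, 20 at *Nkx6-1*, 30 at *Nkx2-2* and 9 at *Mnx1*. None carried the name of *Insm1* or *Glis3*, so that ACSs of these genes could be listed under a neighbouring gene. Which ACSs those are was not tested.

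These genes encode DNA-binding proteins that set and keep the identity of the insulin-producing beta cell. Pdx1 is required for the pancreas to form and later activates the insulin gene, Nkx6-1 keeps beta cells apart from the other islet cell types and supports insulin secretion, Nkx2-2 acts in several endocrine lineages and represses genes of the other islet hormones, and Mnx1 is a homeodomain factor that beta cells need to hold their fate. Insm1 and Glis3 are zinc finger proteins of the same programme. A gene of this kind is read through its promoter and through distal elements that can lie far from it, and ATAC-seq, in which the Tn5 transposase cuts open chromatin, counts the insertions at each such element.

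The libraries were made from dissociated whole islet cells of Sprague-Dawley rats. The Adult group held 3 males of around P90 (postnatal day 90), 1 library each, and the P10 group held 3 litters of 10-day-old pups of both sexes, several pups pooled in each library. By the study's methods, P10 pancreases were digested by hand shaking in collagenase, while in adults collagenase was injected into the pancreatic duct. Age, sex, the pooling of pups and the way of islet isolation thus cannot be told apart in any difference given below. In these whole-islet libraries, fewer beta cells and less open chromatin per beta cell cannot be told apart either. Separate animals or litters stand behind the 3 libraries of each age, so that the tests measure the spread between them.

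The libraries held 7916919 to 11903909 insertions in ACSs for Adult and 13491534 to 21168463 for P10. The median ACS had 36 to 53 insertions in an adult library and 63 to 96 in a P10 library, so low values were less precise in adults. Values are given per library as CPM, which are insertions divided by the library total, in units of 1000000, after scaling by TMM (the trimmed mean of M values, edgeR's scaling on the bulk of ACSs). Fold changes are adult over P10 on the log2 scale with their standard error, and an ACS is called Up (more open in adults) or Down (more open at P10) where p was under 0.05 and the Benjamini-Hochberg adjusted p was under 0.2, and Stable otherwise. The start sites of 6 of 9 beta cell markers were listed, and their summed level was 157 to 224 CPM in adults and 194 to 333 CPM at P10, with overlap. The summed start sites of delta (22.3 to 24.2 against 27.9 to 34.5 CPM, 3 of 3 genes), duct (17.5 to 20.2 against 24.7 to 34.4 CPM, 3 of 5 genes) and acinar markers (4.34 to 6.52 against 7.08 to 8.49 CPM, 2 of 8 genes) were below P10 in every adult library. The alpha (4 of 5 genes), endothelial (2 of 5), mesenchymal (4 of 5) and proliferation lists (3 of 4) overlapped, and the PP marker and the 4 immune markers had no start site among the ACSs. What part these differences in makeup had in the results was not tested.

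The promoter is the part of a gene that a start site covers, and *Mnx1* had no ACS classed as over its start. The 250 bases before each annotated start are printed here from RefSeq (build GRCr8) to show what sequence these homeodomain genes carry there. The ACS coordinates further on belong to the older build Rn5 and do not map onto these. All 4 genes with sites were matched. Capitals mark the homeodomain core TAAT (ATTA on the other strand) and the E-box CANNTG, the motif of basic helix-loop-helix factors such as Neurod1. The windows are chr12:12799157-12799406 (minus strand) for *Pdx1*, chr14:8273988-8274237 (plus) for *Nkx6-1*, chr3:155075623-155075872 (minus) for *Nkx2-2* and chr4:6541395-6541644 (plus) for *Mnx1*.
Pdx1: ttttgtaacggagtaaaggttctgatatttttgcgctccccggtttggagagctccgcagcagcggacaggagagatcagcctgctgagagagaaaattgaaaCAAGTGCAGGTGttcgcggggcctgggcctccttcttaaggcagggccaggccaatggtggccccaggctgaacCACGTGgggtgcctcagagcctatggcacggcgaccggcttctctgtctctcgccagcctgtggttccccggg
Nkx6-1: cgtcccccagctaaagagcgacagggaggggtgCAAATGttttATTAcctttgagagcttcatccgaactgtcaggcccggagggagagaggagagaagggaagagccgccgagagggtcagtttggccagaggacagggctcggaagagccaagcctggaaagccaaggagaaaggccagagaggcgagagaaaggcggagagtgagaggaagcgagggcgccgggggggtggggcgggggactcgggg
Nkx2-2: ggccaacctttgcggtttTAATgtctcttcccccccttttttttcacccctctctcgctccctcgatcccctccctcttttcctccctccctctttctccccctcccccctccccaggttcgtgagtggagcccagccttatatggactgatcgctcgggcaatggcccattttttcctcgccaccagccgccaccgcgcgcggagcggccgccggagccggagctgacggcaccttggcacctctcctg
Mnx1: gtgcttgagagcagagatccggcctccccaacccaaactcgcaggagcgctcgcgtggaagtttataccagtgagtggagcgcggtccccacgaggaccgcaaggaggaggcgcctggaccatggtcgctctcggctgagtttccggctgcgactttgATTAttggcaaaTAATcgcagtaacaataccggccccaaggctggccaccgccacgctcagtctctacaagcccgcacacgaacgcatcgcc

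The *Pdx1* window held 3 E-boxes and no TAAT. One of the E-boxes, CAAGTG at 147 to 142 bases before the start, is at the same time a match to the core that NK2 homeodomain proteins such as Nkx2-2 bind. *Nkx6-1* held 1 E-box and 1 TAAT, *Nkx2-2* held 1 TAAT, and *Mnx1* held 2, of which the nearer ended 77 bases before the start. Of the 33465 promoters of this length in the RefSeq table, 65.5% held CANNTG, 57.0% TAAT and 11.7% CAAGTG on either strand. The paired core TAATTA (4.86% of promoters), the forkhead motif TGTTTAC (3.21%) and the AP-1 motif TGANTCA (6.34%) were in none of the 4 windows, while the NFAT core GGAAA (56.9%), searched on both strands, occurred once in *Nkx6-1*, in 2 places in *Nkx2-2* and once in *Mnx1*. The 4 windows were rich in G and C, from 59.6% in *Pdx1* to 63.2% in *Nkx2-2*, against a median of 51.2% over all promoters. These matches describe letters only.

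The calls at the 4 genes were few and differed in direction. At *Nkx6-1*, 3 distal ACSs were Up and none was Down, and at *Nkx2-2* 8 were Down and none was Up. *Pdx1* and *Mnx1* had 1 and 2 called ACSs. On the genes' own chromosomes, the share of ACSs Up was 14.4% for *Nkx6-1*, 7.99% for *Nkx2-2*, 7.12% for *Pdx1* and 14.2% for *Mnx1*. The share Down was 6.53%, 13.8%, 4.80% and 6.43% in the same order. None of the 3 ACSs over a gene start was called. In all, 4 of the 64 ACSs were Up (6.25%) and 10 were Down (15.6%), by edgeR's quasi-likelihood test with Benjamini-Hochberg adjustment over all ACSs. Over the whole set 18.9% of ACSs were called, 12.3% Up and 6.63% Down, so the share called among the members (21.9%) was near the background. The split between directions rested on the libraries and on the scaling. Leaving out Adult 6 gave 5 Up and 4 Down members, leaving out P10 1 gave 7 Up and 6 Down, leaving out P10 2 gave 3 Up and 6 Down, leaving out P10 3 gave 3 Up and 4 Down, and an adjusted p under 0.05 gave 3 Up and 2 Down. Scaled by plain column sums, 4 members were Up and 12 Down, and all ACSs split into 10447 Up and 10732 Down in place of 12504 and 6738. The median fold change was -0.17 over the members and -0.01 over all ACSs. Of the 64 members, 39 lay below 0, against 51509 of all 101603 ACSs. The ages did not overlap at 16 members, with the adults above at 5 and below at 11, against 13.8% and 10.9% of all ACSs. When the total reads of the libraries replaced the scaling on ACSs, all ACSs shifted by a median of -0.84, and the members split into 0 Up and 46 Down. Relative to that shift the 14 called ACSs all had the same direction as before. Taking the shift off brings back the scaling on the bulk of ACSs, so that this restates the calls and is no separate check.

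**Figure D1:**
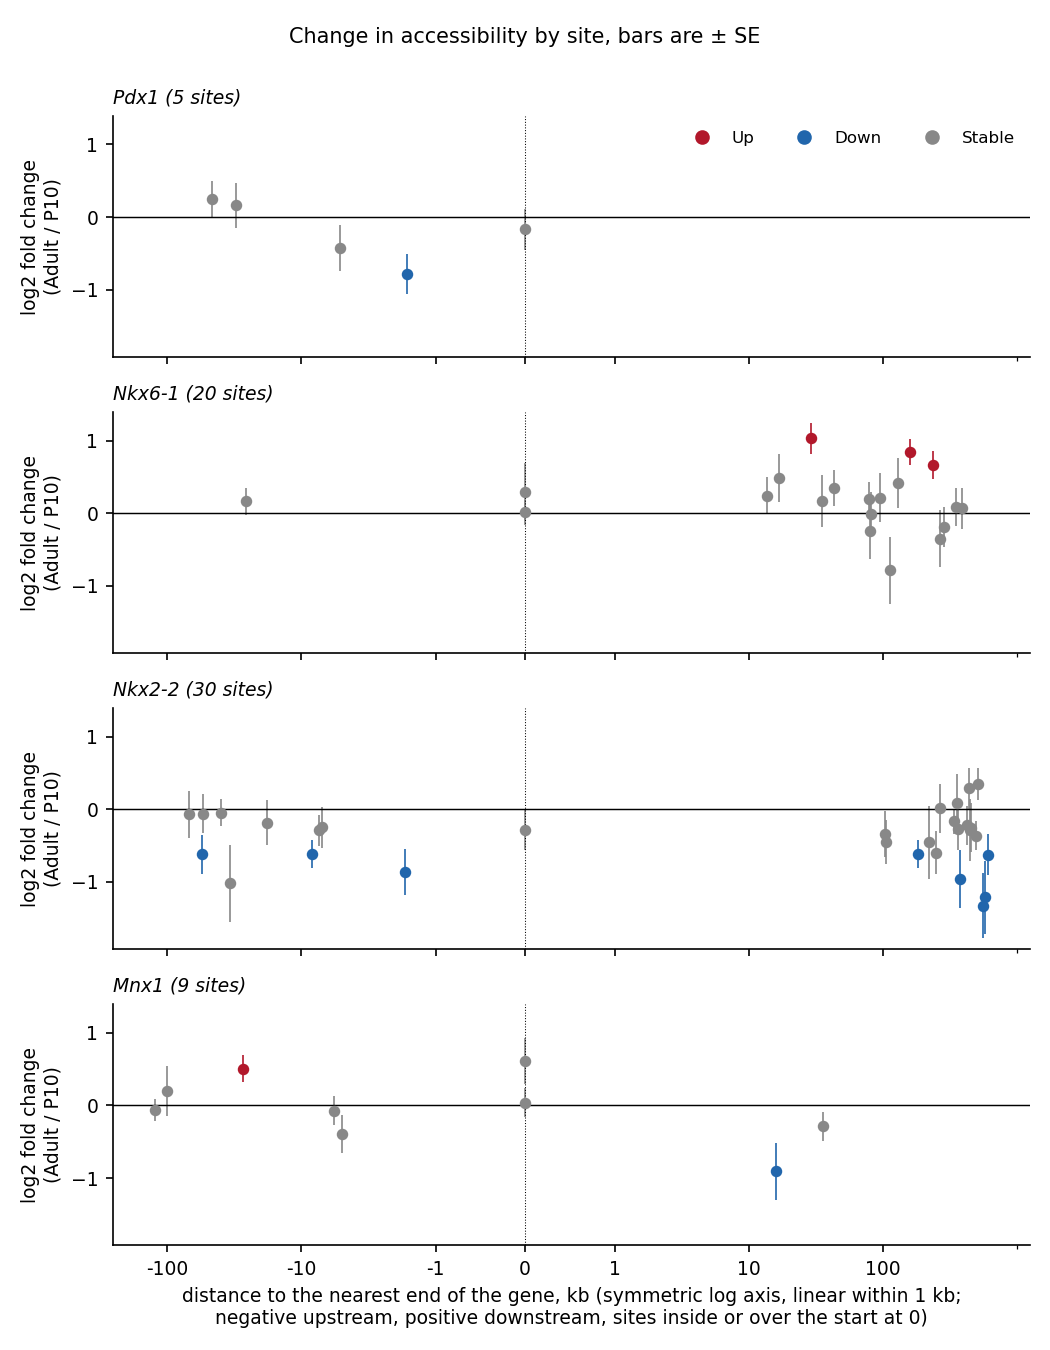
Log2 fold change (Adult over P10, vertical axis) of all 64 ACSs of the 4 genes against their distance in kb to the nearest end of the gene (horizontal, symmetric log axis, negative upstream), with bars for the standard error. The 3 Up ACSs of *Nkx6-1* lie downstream at 28932, 157884 and 237446 bp. Of the 30 ACSs of *Nkx2-2*, 26 lie below 0, where the median over all ACSs of chromosome 3 is -0.17.

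By class, the 3 members over a start had 0 calls, the 11 proximal members had 3 Down and 0 Up, and the 50 distal members had 4 Up and 7 Down. Over all ACSs, 2.73% of those over a start were Up and 7.87% Down, against 11.2% and 6.71% of proximal and 13.8% and 6.45% of distal ACSs. The median fold change was -0.17 for the members over a start, -0.29 for the proximal and -0.07 for the distal ones. The members were wider than the whole set, with a median of 465.5 bp against 373 bp, and had a median level of 5.44 CPM against 4.70 CPM. All 64 were tested, and 4 of them averaged under 20 insertions.

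*Nkx6-1* (gene ID 65193, chr14:9516942-9523869, plus strand) had 3 Up ACSs among 20 (15%) and none Down. This share was near the 14.4% Up on chromosome 14 and the 13.8% Up over all distal ACSs. The ACS over the start of *Nkx6-1* had 40.9, 33.5 and 35.2 CPM in the adult libraries and 40.7, 39.4 and 28.8 CPM in the P10 libraries. The ages overlapped there, with a fold change of 0.01 ± 0.17 (SE, adjusted p = 0.984 by edgeR). Per kb of width this start site was the most accessible of the 3 start sites, with 40.1 CPM per kb against 25.1 at *Pdx1* and 19.3 at *Nkx2-2*, all as means over the 6 libraries. Nkx6-1 protein is needed for glucose-stimulated insulin secretion in adult beta cells, and at its start site the ages differed by less than the SE.

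Downstream of *Nkx6-1*, the ACS at chr14:9552801-9553772, 28932 bp past the end of the gene, had 20.1, 17.3 and 16.0 CPM in adults and 8.65, 8.99 and 8.56 CPM at P10. The lowest adult library was far above the highest P10 library, and the mean level was 2.04-fold higher (log2 fold change 1.03 ± 0.21, adjusted p = 0.00183 by edgeR). A farther ACS at chr14:9681753-9682546, 157884 bp from the gene, had 52.0, 45.9 and 41.8 CPM in adults and 30.9, 23.1 and 23.7 CPM at P10. It was 1.80-fold higher in adults with no overlap (0.84 ± 0.17, adjusted p = 0.00177 by edgeR), and in adults it stood above the start site itself in mean level (46.5 ± 5.13 against 36.5 ± 3.90 CPM, SD, n = 3). The third, at chr14:9761315-9762111 and 237446 bp from the gene, had 25.8, 22.1 and 27.2 CPM in adults and 18.5, 15.0 and 13.8 CPM at P10. The ages did not overlap there either, and the fold change was 0.66 ± 0.19 (adjusted p = 0.0285 by edgeR). All 3 calls were kept with each library left out in turn, with adjusted p at most 0.16, and also at an adjusted p under 0.05. With total reads as library sizes the fold changes were 0.20, -0.0150 and -0.20, under a shift of all ACSs by -0.84.

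The other 17 ACSs of *Nkx6-1* were Stable, with fold changes from -0.79 to 0.49. The lowest among those averaging at least 20 insertions lay 267035 bp downstream and had 1.36, 1.75 and 2.06 CPM in adults against 1.77, 3.28 and 1.59 CPM at P10, which overlapped (-0.35 ± 0.40, adjusted p = 0.689 by edgeR). The 3 Up ACSs lay among these Stable ones rather than side by side. Of the 17 downstream ACSs, which reached 388196 bp from the gene, 5 had fold changes below 0. The single upstream ACS at 26012 bp had a fold change of 0.16 and the single one inside the gene 0.30. In the deposited annotation the next genes were *Cds1* 98422 bp before and *Agpat9* 769157 bp after *Nkx6-1*, and RefSeq lists no other named protein-coding gene between them in GRCr8. Chromosome 14 as a whole had 14.4% of its ACSs Up and 6.53% Down, with a median fold change of 0.02.

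Summed over its 20 ACSs, *Nkx6-1* had 251, 214 and 214 CPM in adults and 207, 173 and 152 CPM at P10, so that every adult library was above every P10 library. The log2 ratio of the means (226 ± 21.7 against 177 ± 28.2 CPM, SD, n = 3) was 0.35. The mean log2 CPM differed by 0.36 between the ages. The exact two-sided permutation test of this difference, with 3 against 3 libraries, gave p = 0.1, the smallest it can give (0.2 adjusted over the 4 genes). Its 18 distal ACSs alone had 209, 178 and 176 CPM against 165, 131 and 122 CPM, again without overlap.

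The distal ACSs were also set against the start site of the same library, a ratio of raw counts in which no scaling between libraries enters. This measure was chosen after the values had been seen and taken only at called ACSs, so that it restates their calls without the scaling and is given as a description with no test. At 28932 bp the ratio was 0.490, 0.517 and 0.454 in adults and 0.212, 0.228 and 0.298 at P10. At 157884 bp it was 1.27, 1.37 and 1.19 in adults and 0.759, 0.586 and 0.825 at P10. The distal site thus held more insertions than the promoter in every adult library and fewer in every P10 library. At 237446 bp the ratio was 0.631, 0.660 and 0.773 against 0.454, 0.382 and 0.480. None of the 3 overlapped between the ages.

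**Figure D2:**
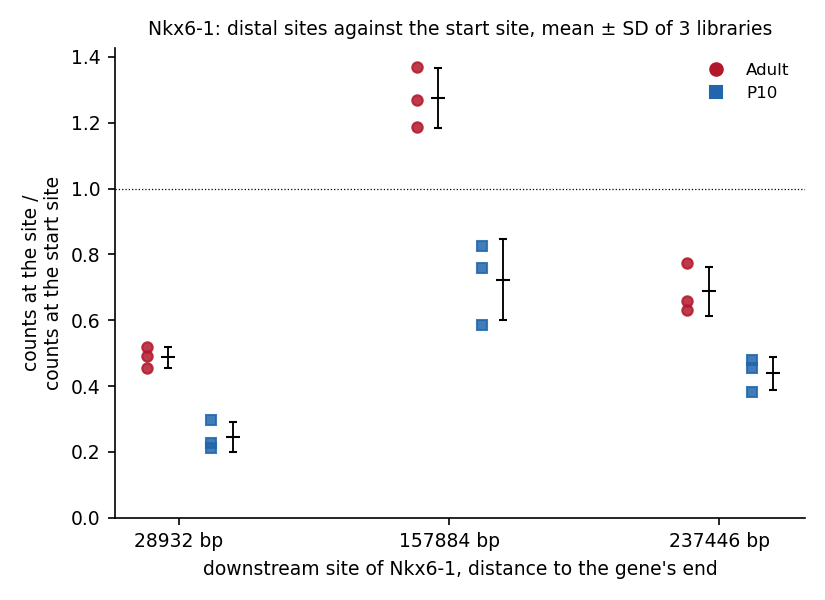
Counts at each Up ACS of *Nkx6-1* divided by the counts at the start site (vertical axis, starting at 0) for the 3 downstream distances (horizontal), with 1 point per library and bars for the mean ± SD of 3 libraries. Adult points are above P10 points at all 3, and at 157884 bp the adult ratios are above 1 (dotted line) and the P10 ratios below it.

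*Nkx2-2* (gene ID 366214, chr3:147827035-147829407, minus strand) moved to the Down side. The ACS over its start had 3.98, 5.16 and 4.77 CPM in adults and 6.32, 3.85 and 6.55 CPM at P10. The ages overlapped and the fold change was -0.28 ± 0.29 (adjusted p = 0.652 by edgeR). All 10 upstream ACSs and 15 of the 19 downstream ones had fold changes below 0, with a median of -0.29 over the 30. The median over all ACSs of chromosome 3 was itself below 0, at -0.17.

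Close to the gene, 4 proximal ACSs lay upstream. The one at chr3:147837758-147838612, 8351 bp from the start, had 18.9, 16.3 and 14.7 CPM in adults and 28.8, 24.0 and 23.8 CPM at P10. The ages did not overlap, P10 was 1.54-fold higher in mean, and the fold change of -0.62 ± 0.19 (adjusted p = 0.0392 by edgeR) was called without any 1 of the 6 libraries. It is the farthest of 3 neighbouring ACSs that together span 2239 bp. The other two, at 6967 and 7452 bp, were Stable with fold changes of -0.25 and -0.29. Nearest to the start, the ACS at chr3:147831102-147831328, 1695 bp away, had 5.24, 2.63 and 2.19 CPM in adults and 7.53, 5.78 and 5.23 CPM at P10. Its ages overlapped by a narrow margin in Adult 4, and it was Down at -0.86 ± 0.32 (adjusted p = 0.0941 by edgeR), but not without Adult 5, Adult 6 or P10 1 (-0.70, -0.65 and -0.70, adjusted p = 0.257, 0.301 and 0.241 by edgeR). At 54855 bp upstream (chr3:147884262-147884822) the values were 6.78, 5.84 and 4.64 CPM in adults and 11.1, 6.56 and 8.93 CPM at P10. This ACS was Down at -0.62 ± 0.26 (adjusted p = 0.159 by edgeR) with overlap, and the call was lost without Adult 5, Adult 6, P10 1 or P10 3, with values from -0.63 to -0.44.

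On the downstream side, the most accessible Down ACS was at chr3:147642542-147643439, 183596 bp from the gene. It had 21.8, 16.8 and 15.0 CPM in adults and 27.2, 27.0 and 27.9 CPM at P10. The P10 litters lay close together and above all adults (-0.61 ± 0.19, adjusted p = 0.0405 by edgeR), and the call was kept without any 1 library. Farther out, 4 weaker ACSs were Down. At 373513 bp (chr3:147453171-147453522) the levels were 1.63, 0.68 and 1.80 CPM in adults and 2.37, 2.71 and 2.85 CPM at P10, with no overlap (-0.96 ± 0.40, adjusted p = 0.143 by edgeR). At 554248 bp (chr3:147272574-147272787) they were 0.90, 0.97 and 0.39 CPM against 1.95, 1.43 and 2.48 CPM, again with no overlap (-1.33 ± 0.45, adjusted p = 0.0615 by edgeR). At 574267 bp (chr3:147252519-147252768) adult rats differed widely among themselves, with 0.18, 2.53 and 0.64 CPM against 2.37, 3.42 and 2.17 CPM at P10, and the ages overlapped (-1.21 ± 0.50, adjusted p = 0.148 by edgeR). At 607701 bp (chr3:147218865-147219334) the levels were 4.16, 3.21 and 3.48 CPM against 6.18, 5.63 and 4.97 CPM without overlap (-0.63 ± 0.28, adjusted p = 0.196 by edgeR).

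These 4 calls were less stable than the one at 183596 bp. The ACS at 607701 bp lost its call without any 1 of the 6 libraries, with values from -0.74 to -0.54. The ACS at 574267 bp lost it without Adult 4, Adult 6, P10 2 or P10 3, and its value ran from -2.77 without Adult 5 to -0.66 without Adult 4. The ACS at 373513 bp lost it without Adult 5, P10 2 or P10 3 (-0.63, -0.96 and -0.91), and the ACS at 554248 bp without Adult 6 or P10 3 (-1.06 and -1.14). All but that at 607701 bp averaged between 22 and 30.3 insertions a library.

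The 22 Stable ACSs of *Nkx2-2* ranged from -1.02 to 0.35. The most accessible, 340442 bp downstream, had 29.4, 29.3 and 25.7 CPM in adults and 32.1, 30.2 and 32.5 CPM at P10. All adults were below all P10 litters there, but by little (-0.17 ± 0.17, adjusted p = 0.644 by edgeR). The highest fold change was at 513342 bp downstream, with 13.9, 17.4 and 13.5 CPM in adults and 11.4, 13.3 and 10.6 CPM at P10. There every adult was above every litter, and the fold change of 0.35 ± 0.21 was not called (adjusted p = 0.379 by edgeR).

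Summed over the 30 ACSs, *Nkx2-2* had 236, 212 and 187 CPM in adults and 275, 244 and 265 CPM at P10. No adult reached the lowest litter, and the log2 ratio of the means (212 ± 24.5 against 261 ± 15.8 CPM, SD, n = 3) was -0.30. The difference in mean log2 CPM was -0.31, for which the exact two-sided permutation test gave p = 0.1 (0.2 adjusted). The 4 proximal ACSs alone had 50.2, 37.3 and 33.6 CPM against 65.8, 53.7 and 50.2 CPM, where Adult 4 and P10 3 nearly met. Against the start site of the same library, 7 of the 8 Down ACSs of *Nkx2-2* overlapped between the ages, the exception being that at 554248 bp (0.227, 0.189 and 0.081 in adults against 0.309, 0.370 and 0.379 at P10).

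Chromosome 3 itself leaned to the Down side. It had 13.8% of its 6104 ACSs Down and 7.99% Up, with a median fold change of -0.17, which only chromosome 10 (-0.18) exceeded among the 21 chromosomes. It took 4.61% to 5.09% of the insertions of the adult libraries and 5.41% to 5.73% of those at P10. Of the 30 ACSs of *Nkx2-2*, 26.7% were Down and 23 lay below the chromosome's own median (median difference -0.12 over all 30). What part the whole chromosome had in the values of *Nkx2-2* was not tested.

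**Figure D3:**
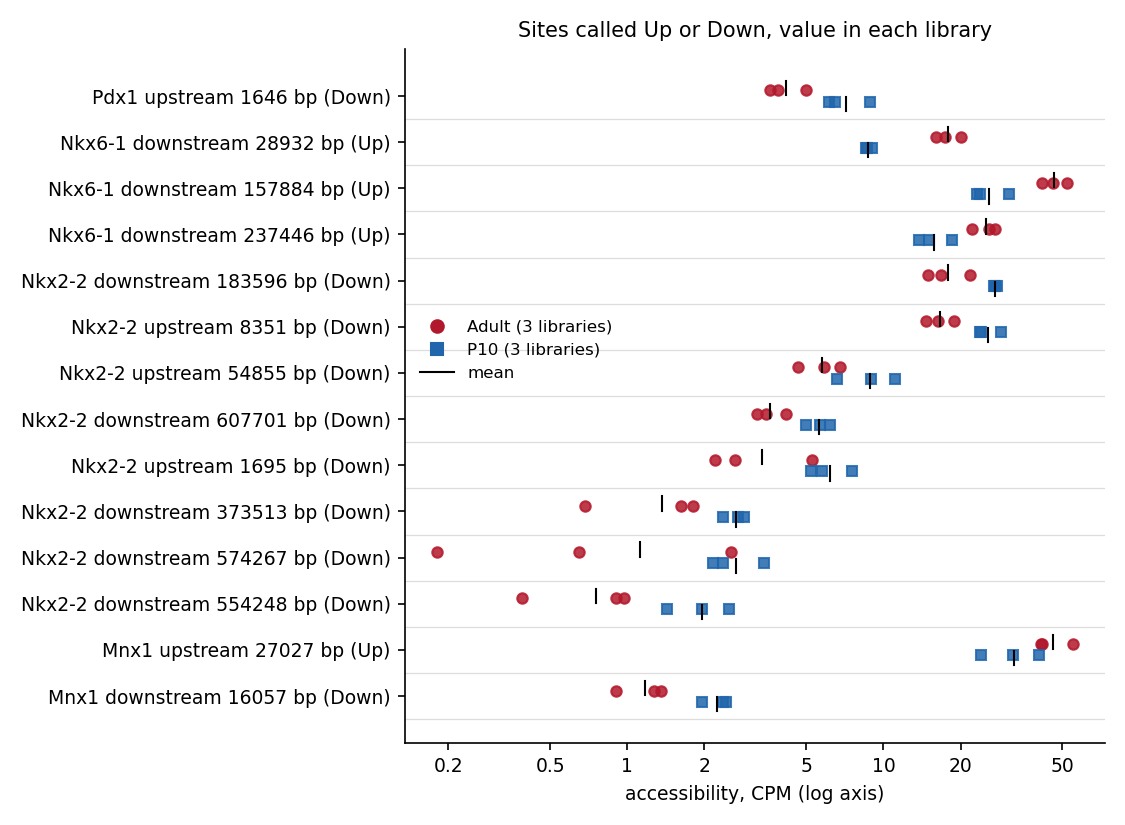
Accessibility in CPM (log axis) in each of the 6 libraries for the 14 called ACSs, with circles for Adult, squares for P10 and a black line for the mean of 3 libraries. The adult points of the 3 *Nkx6-1* ACSs and the *Mnx1* ACS at 27027 bp lie right of the P10 points, and those of the 10 Down ACSs lie left, with overlap at 3 of them.

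*Pdx1* (gene ID 29535, chr12:11609488-11614655, minus strand) had few sites and a wide spread among the adult rats. Of all ACSs on chromosome 12, 7.12% were Up and 4.80% Down. The ACS over its start had 13.6, 7.69 and 5.16 CPM in adults and 12.6, 7.85 and 9.46 CPM at P10. Adult values lay on both sides of the P10 values, and the fold change was -0.17 ± 0.28 (adjusted p = 0.809 by edgeR). At chr12:11616301-11616658, 1646 bp upstream, the levels were 4.97, 3.60 and 3.87 CPM in adults and 8.88, 6.49 and 6.13 CPM at P10. This was the only called ACS of the gene, with P10 1.73-fold higher in mean and no overlap (-0.79 ± 0.28, adjusted p = 0.0775 by edgeR), and the call was lost without P10 1 (-0.61, adjusted p = 0.229 by edgeR, range over single libraries left out 0.0826 to 0.229).

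The proximal ACS 5132 bp upstream of *Pdx1* had 18.3, 10.6 and 4.38 CPM in adults and 21.8, 13.0 and 10.5 CPM at P10. It was Stable at -0.43 ± 0.31 (adjusted p = 0.488 by edgeR), and Adult 4 stood inside the P10 range. The most accessible ACS, 46499 bp upstream, ran the other way among the adults, with 11.1, 25.1 and 14.4 CPM against 13.2, 17.4 and 12.3 CPM at P10 (0.25 ± 0.25, adjusted p = 0.638 by edgeR). The ACS at 30929 bp had the same order, with Adult 5 at 9.93 CPM and the other two at 3.89 and 5.41 CPM. Adult 4 was thus the highest adult at the start and at both proximal ACSs, and the lowest at both distal ones. Over the 5 ACSs the highest adult was a median of 2.56 times the lowest, against 1.52 times over the 90809 ACSs averaging at least 20 insertions. Chromosome 12 as a whole also varied among the adults. It took 1.79%, 1.86% and 1.30% of the insertions of Adult 4, 5 and 6, and 1.80%, 1.71% and 1.64% of those of P10 1, 2 and 3. What part the whole chromosome had in the spread at *Pdx1* was not tested. The sums of 51.8, 57.0 and 33.3 CPM in adults and 61.6, 52.3 and 42.9 CPM at P10 overlapped (47.3 ± 12.5 against 52.3 ± 9.33 CPM, SD, n = 3, exact two-sided permutation p = 0.6, 0.7 adjusted). The intervening upstream stretch runs 191671 bp to *Rpo1-3* in the deposited annotation, and RefSeq puts *Gsx1*, a name that none of the ACSs carries, between these genes in GRCr8.

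*Mnx1* (gene ID 682076, chr4:2429080-2434037, minus strand) had 1 Up and 1 Down ACS among 9, where chromosome 4 as a whole had 14.2% Up and 6.43% Down. The gene is on the minus strand in the deposited Rn5 annotation and on the plus strand of GRCr8, from which its promoter is printed, and upstream and downstream follow the deposited annotation. None was classed as over the start, and the nearest to it, inside the gene and ending 68 bp from the start, was classed as proximal. It had 20.2, 18.5 and 15.2 CPM in adults and 20.2, 16.4 and 16.1 CPM at P10, with a fold change of 0.04 ± 0.20 (adjusted p = 0.951 by edgeR). The Up ACS at chr4:2461064-2461999, 27027 bp upstream, had 54.9, 41.5 and 41.3 CPM in adults and 40.6, 32.2 and 24.1 CPM at P10. The lowest adult was just above the highest litter, and the fold change was 0.51 ± 0.19 (adjusted p = 0.0918 by edgeR). The call was lost without Adult 4, P10 2 or P10 3 (0.36, 0.49 and 0.32, adjusted p = 0.333, 0.261 and 0.434 by edgeR), and the value was -0.36 with total reads as library sizes. Against the ACS inside the gene near the start, its ratio was 2.71, 2.24 and 2.71 in adults and 2.01, 1.96 and 1.50 at P10, without overlap.

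The Down ACS of *Mnx1* lay on the other side, at chr4:2412818-2413023 and 16057 bp past the gene's end. On this side the next gene in the deposited annotation was *Lmbr1*, 98542 bp from *Mnx1*. RefSeq puts *Nom1* between them in GRCr8, and no ACS carries that name, so that an ACS at *Nom1* would be listed under a neighbour. The Down ACS was weak, with 1.36, 1.27 and 0.90 CPM in adults and 1.95, 2.35 and 2.43 CPM at P10, and did not overlap (-0.91 ± 0.39, adjusted p = 0.169 by edgeR). DESeq2 and limma voom did not call it (adjusted p = 0.216 and 0.207), nor did edgeR without Adult 4, Adult 6, P10 2 or P10 3 (-1.02, -0.77, -0.89 and -0.86). The highest fold change at the gene, 0.61 ± 0.31 at an ACS inside it 1947 bp from its nearer end (6.69, 4.87 and 3.48 CPM against 4.32, 2.64 and 2.91 CPM), was not called (adjusted p = 0.268 by edgeR), though it was Up without Adult 6 (0.80) or P10 1 (0.85).

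The most accessible of all 64 ACSs was a broad one of 1176 bp, 124210 bp upstream of *Mnx1*. It had 80.6, 62.6 and 77.6 CPM in adults and 74.0, 80.0 and 77.1 CPM at P10, and its fold change of -0.07 ± 0.15 had the smallest error among the members (adjusted p = 0.865 by edgeR). In the deposited annotation the next gene on that side was *Dnajb6*, 327832 bp from *Mnx1*. RefSeq puts *Polr2sl1* and *Ube3c* between them in GRCr8, and no ACS carries either name, so that an ACS at *Ube3c* would be listed under a neighbour. The sum over the 9 ACSs was 217, 171 and 186 CPM in adults and 209, 180 and 171 CPM at P10, which overlapped (191 ± 23.1 against 187 ± 19.5 CPM, SD, n = 3, exact two-sided permutation p = 0.7).

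**Figure D4:**
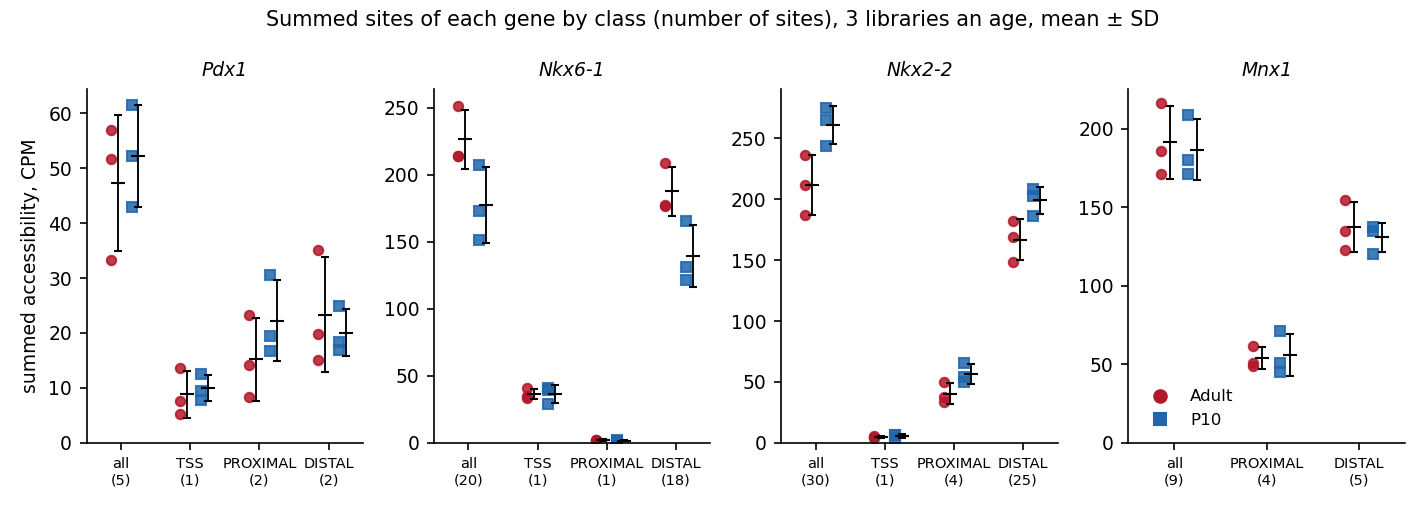
Summed accessibility in CPM (vertical axis, starting at 0) of the ACSs of each gene, over all of them and by class with the number of ACSs in brackets, with 1 point per library and bars for the mean ± SD of 3 libraries. Adult and P10 do not overlap for *Nkx6-1* (226 against 177 CPM in mean) and *Nkx2-2* (212 against 261 CPM), and overlap for *Pdx1* and *Mnx1*.

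The naming of ACSs by the nearest annotated gene bears most on *Nkx2-2*, *Insm1* and *Glis3*. In GRCr8, RefSeq puts *Nkx2-4*, *Xrn2*, *Kiz*, *Ralgapa2*, *Insm1* and *Cfap61* on the downstream side of *Nkx2-2*, and none of these 6 names is carried by an ACS. The 19 downstream ACSs of *Nkx2-2*, which began 103981 bp from the gene, can therefore lie nearer to one of these genes than to *Nkx2-2* in the animal's genome. The 10 upstream ACSs have no such gene between them and *Pax1*, 166582 bp away, and 3 of the 10 were Down. Insm1 drives the differentiation of endocrine cells. Between *Crnkl1* and *Nkx2-2*, a stretch of 1265204 bp of Rn5 in which RefSeq's order puts *Insm1*, there were 44 ACSs, 19 of them the downstream ACSs of *Nkx2-2*. Of the 44, 2 were Up (4.55%) and 14 Down (31.8%), against 7.99% and 13.8% for the chromosome, with a median fold change of -0.36. Glis3 binds the insulin promoter and takes part in beta cell development. Between *Rfx3* and *Slc1a1*, where RefSeq puts *Glis3* as the only named protein-coding gene, 841232 bp held 45 ACSs, of which 1 was Up (2.22%) and 6 Down (13.3%), with a median of -0.20, where chromosome 1 had 8.24% Up, 8.16% Down and a median of -0.07. These stretches were chosen after the names had been found missing, and which of their ACSs belong to which gene was not tested.

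The 28 genes of a list of other islet transcription factors gave the wider setting. Of these, 25 had ACSs, and 57 of their 453 ACSs were Up (12.6%) and 42 Down (9.27%), with a median fold change of -0.02. By gene, 6 had Up calls only, 4 had Down calls only, 11 had both and 4 had none. *Myt1l*, a zinc finger factor best known from neurons, had 14 of 32 Up and none Down, and *Foxa1*, a forkhead pioneer factor, had 6 of 20 Up and none Down. Its relative *Foxa2*, which lies beyond *Pax1* on the same chromosome as *Nkx2-2*, had 4 Up and 8 Down of 34. *Hhex*, a homeodomain factor of delta cells, had 3 of 4 Down, and *Nr5a2* had 1 Up and 7 Down of 31.

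Among those 25 genes, the one whose summed accessibility followed a member most closely over the 6 libraries (Pearson r of log2 CPM) was *Lmx1b* for *Nkx6-1* (r = 0.88), *Hhex* for *Nkx2-2* (r = 0.84) and *Prox1* for *Mnx1* (r = 0.90). The 6 points share the depth and makeup of their libraries, and the values are descriptions.

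**Figure D5:**
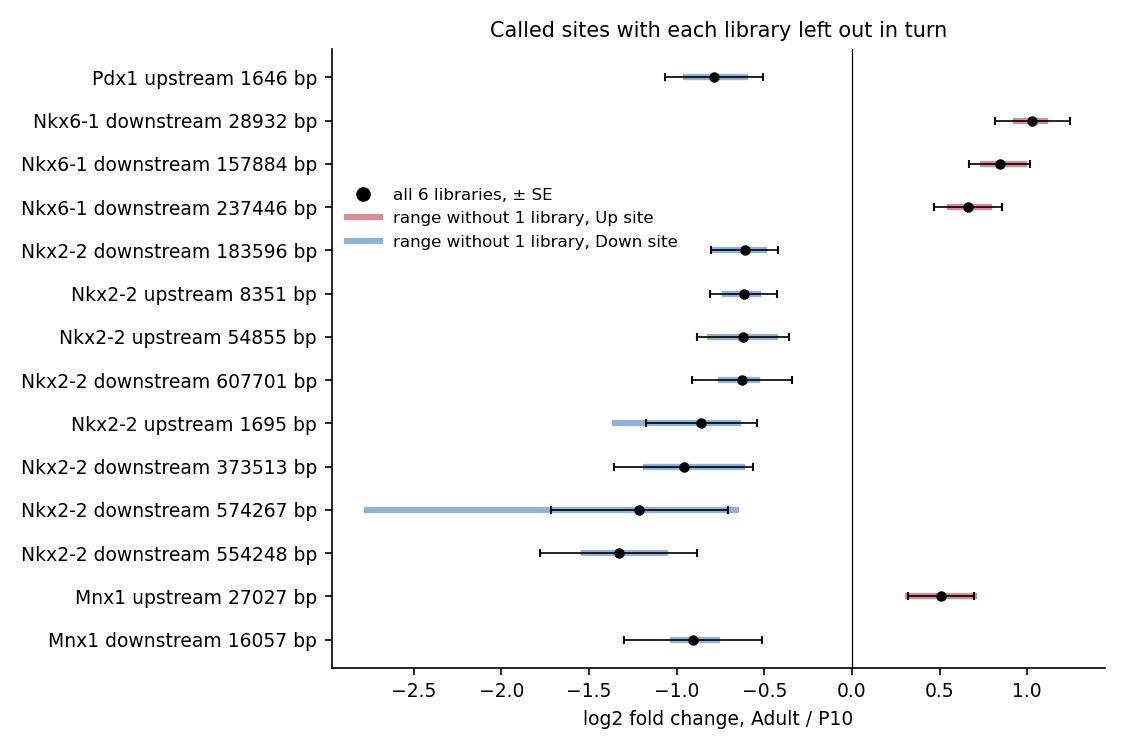
Log2 fold change (Adult over P10, horizontal axis) of the 14 called ACSs with all 6 libraries (black points, bars ± SE) and the range of values with each library left out in turn (coloured bars). All 14 keep their direction, and the widest range is that of the *Nkx2-2* ACS at 574267 bp, from -2.77 to -0.66.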

How the data were processed

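ATAC-seq was measured in 3 Adult and 3 P10 islet libraries. Per the labels and the study's methods, the authors aligned reads to Rn5 with BWA (0.7.13), removed mitochondrial and low-quality reads with SAMtools (1.3), called peaks with MACS2 (2.1.1) on the libraries of each age concatenated, joined both sets and counted Tn5 insertions per ACS. The deposited table gives these raw counts with the nearest gene, class and distance. Its other columns hold the authors' own comparison, namely a deposited log2 fold change and log2 mean level, an F score, p-values and a false discovery rate, and were not used.

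Of 101941 entries, 338 repeated a site, leaving 101603 ACSs, of which 6846 had no gene symbol. Counts were fitted with edgeR 4.0.16 (quasi-likelihood test, TMM factors 0.93 to 1.04, no filter, no covariate) in R 4.3.3, with Benjamini-Hochberg adjustment over all ACSs. The standard error is the fold change divided by the square root of its F. On simulated counts of all 101603 ACSs with 200 changed by a log2 fold of 1, 40% were recovered with 19 false calls. In the data 18.9% of ACSs were called, far more than were changed in the simulation. The adjustment was thus stricter in the simulation, and its 40% does not measure the recovery in the data. Sums per gene were compared by exact permutation of the difference in mean log2 CPM (Python 3.11.15). Named with all values were the called ACSs, those over a start, and each gene's most accessible, highest and lowest ACS (mean of at least 20 counts for both of these), 23 in all, and a few more near them were named after their values were seen. The members and gene lists were chosen with earlier results of these data known. Alternatives were DESeq2 1.42.0, limma 3.58.1 voom, other scalings, filters and thresholds, and each library left out. Values cover the libraries as sequenced, and counting error falls with the count.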

Additional observations from a re-analysis of the deposited data

How the results depend on the processing

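No paired analysis was possible because the Adult libraries came from single adult males and the P10 libraries from litters of pups. No library of one age thus has a partner in the other. The library numbers, 4 to 6 for Adult and 1 to 3 for P10, are not shared either. Median-of-ratios factors, column sums, the expression filter, a mean of at least 50 counts, DESeq2, voom and a newer form of the quasi-likelihood fit (chosen after seeing the data) gave 4 Up members each and 8 to 12 Down. By gene, *Mnx1* had 0 Down with DESeq2, voom and the mean of at least 50 counts, and *Nkx2-2* had 7 Down with voom, the newer fit and the mean of at least 50 counts, and 10 with column sums. Its ACS at 607701 bp lost its call with voom and the newer fit (adjusted p = 0.219 and 0.205). The mean of at least 50 counts leaves out 4 of the 10 Down ACSs, those of *Nkx2-2* at 373513, 554248 and 574267 bp and that of *Mnx1*. At an adjusted p under 0.05, 3 Up members (all of *Nkx6-1*) and 2 Down (both of *Nkx2-2*) were left, with 0 Down at *Pdx1* and 0 Up and 0 Down at *Mnx1*, against 7177 Up and 1945 Down over all ACSs.

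With total reads as library sizes, all ACSs shifted by -0.84 in median, with 1062 Up and 61663 Down, and the members gave 0 Up and 46 Down, with 0 Up and 10 Down at *Nkx6-1*, 27 Down at *Nkx2-2*, 3 Down at *Pdx1*, and 0 Up and 6 Down at *Mnx1*. The log2 ratios of the sums became -0.99 (*Pdx1*), -0.51 (*Nkx6-1*), -1.14 (*Nkx2-2*) and -0.82 (*Mnx1*). The direction turned at the *Nkx6-1* ACSs over the start (-0.85), at 157884 bp (-0.0150) and at 237446 bp (-0.20), at those of *Mnx1* at 27027 bp (-0.36) and 1947 bp (-0.25), at *Pdx1* 46499 bp (-0.57) and at *Nkx2-2* 513342 bp (-0.48). The directions reported are thus relative to the bulk of ACSs, and which scaling is right was not tested.

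Leaving out 1 library gave 3 to 7 Up and 4 to 9 Down members, with 0 to 2 Down at *Pdx1*, 3 to 5 Up and 0 to 1 Down at *Nkx6-1*, 3 to 6 Down at *Nkx2-2*, and 0 to 2 Up and 0 to 1 Down at *Mnx1*. Up members outnumbered Down ones without Adult 6 (5 against 4) and without P10 1 (7 against 6), and the 4 Down came without Adult 6 or P10 3. Uncalled ACSs near 0 changed sign. The *Nkx6-1* start site ran from -0.15 to 0.0915 and was -0.00205 with DESeq2, -0.00207 with median-of-ratios factors, -0.0851 with column sums and -0.0768 with at least 50 counts. The *Pdx1* start site ran from -0.62 to 0.0909, *Pdx1* 46499 bp from -0.16 to 0.48, *Nkx6-1* 267035 bp from -0.55 to 0.00876 and *Mnx1* 124210 bp from -0.14 to 0.0386. The SE was 0.15 at the member with the most counts and 0.53 at that with the fewest, which sets what could be resolved at this depth.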
